A study of Mus musculus with 20 samples.

Results

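The 10 genes described here, Ern1, Eif2ak3, Atf6, Xbp1, Atf4, Ddit3, Trib3, Chac1, Asns and Sesn2, are sensors, transcription factors and target genes of the unfolded protein response and the integrated stress response. They were chosen by symbol, with no measured value in the rule, though earlier results of these data were known. They make up 10 of the 29200 gene IDs in the count table. RNA was sequenced from the cerebella of 20 C57BL6/N mice in 4 groups of 5: WT/WT mice at 2 months, 304Q/304Q mice at 2 months, WT/WT mice at 12 months and 304Q/304Q mice at 12 months. The 304Q/304Q mice are a knock-in model of spinocerebellar ataxia type 3 (SCA3) and carry an expanded repeat of 304 units in both alleles of Atxn3. The gene is expressed from the mouse locus under its endogenous regulatory elements. All of them descend from 1 founder line made with zinc-finger nucleases. The labels call the repeat CAG and name the wild-type gene of the WT/WT mice ataxin-2, whereas the study describes Atxn3 throughout and a repeat interrupted by CAA. The sex of the mice was not used here.

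Cells answer unfolded protein in the endoplasmic reticulum (ER) through sensors in the ER membrane. Ern1 encodes IRE1, an RNase that splices the Xbp1 messenger into the form translated as an active transcription factor. Eif2ak3 encodes PERK, a kinase of the initiation factor eIF2, and Atf6 encodes a membrane-bound transcription factor that is freed by cleavage in the Golgi apparatus. The integrated stress response shares its centre with the PERK arm: kinases that sense different stresses phosphorylate eIF2, general translation falls, and translation of Atf4 messenger rises. ATF4 then turns on genes of amino acid supply such as Asns and regulators such as Ddit3 (CHOP), Trib3, Chac1 and Sesn2. Much of this signalling takes place through splicing, cleavage, phosphorylation and translation, which counts of whole-gene messenger RNA do not measure. Aggregates of protein with long glutamine tracts, the hallmark of SCA3, are one of the loads for which these pathways have been examined in neurons.

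ATF4 binds composite sites known as C/EBP-ATF response elements, so the start regions of the genes were searched for them. RefSeq (GRCm38.p6) gave a window from 250 bases before to 50 bases after the start for 9 of the 10 genes, all but Atf6. The element TGATGNAA, searched on both strands, was in 3 of the 9 windows, those of Asns, Chac1 and Trib3, and in 3.97% of all 32851 windows. These 3 stretches are shown because they mark the targets that hold the letters of the ATF4 element, which stands in capitals; the lines run 5′ to 3′ on the strand of the gene.
Asns: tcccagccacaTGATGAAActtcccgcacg
Chac1: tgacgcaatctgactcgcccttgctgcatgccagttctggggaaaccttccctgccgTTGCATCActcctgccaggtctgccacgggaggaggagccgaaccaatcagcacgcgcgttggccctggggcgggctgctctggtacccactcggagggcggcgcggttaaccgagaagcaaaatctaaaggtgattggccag
Trib3: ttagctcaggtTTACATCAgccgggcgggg

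The Asns stretch lies at chr6:7693214-7693243 on the minus strand, and its match runs from 23 to 16 bases before the RefSeq start, inside the gene as GENCODE draws it. For Chac1 the stretch is chr2:119350992-119351191 on the plus strand, upstream of the gene, with the match on the opposite strand 193 to 186 bases before the start. The Trib3 stretch is chr2:152344028-152344057 on the minus strand, and its match, also on the opposite strand, covers bases 15 to 22 after the RefSeq start. That match lies upstream of the gene as GENCODE draws it. None of the 9 windows held the ER stress response element (CCAAT and CCACG with 9 bases between), the unfolded protein response element TGACGTGG or the cyclic AMP response element TGACGTCA, which are in 0.119%, 0.676% and 1.79% of all windows. Among genes fixed as ATF4 targets, 10 of 31 windows held the C/EBP-ATF element, and among ER chaperones 7 of 13 held the ER stress response element and 0 the C/EBP-ATF element. Of 17 windows of degradation genes and XBP1 targets, 2 each held the C/EBP-ATF, ER stress response and unfolded protein response elements. A match is a string of letters and not a measured binding site.

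Library totals lay between 11385380 and 27636687 counts, the highest being 1 library of a 304Q/304Q mouse at 2 months, and no marker of granule cells or Purkinje cells, which define cerebellar tissue, was at 0 throughout a group. Atxn3 itself was detected in all groups, with 19.6 ± 2.96 normalized CPM (mean and SD, n = 5) for WT/WT against 13.5 ± 2.17 for 304Q/304Q mice at 2 months, and 15.6 ± 1.12 against 14.3 ± 1.24 at 12 months (log2 differences of -0.54 and -0.13, adjusted p = 0.0916 and 0.51). Normalized CPM are counts per 1000000 counts of the TMM-scaled library. Since the knock-in lengthens a repeat and leaves the gene in place, this level does not check the genotype labels. The summed level of 6 choroid plexus markers ranged from 12.2 to 2109 normalized CPM between mice and was above 400 in 3 of the 5 WT/WT and 2 of the 5 304Q/304Q mice at 12 months, and in 1 mouse of the other 2 groups. Fos, an immediate early gene that answers to handling, was under 10 normalized CPM in 1 mouse of each 2-month group and in 2 of the 5 304Q/304Q mice at 12 months, and 29.9 or more elsewhere. The labels name no batches.

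When levels were compared per kilobase of exon, Atf4 stood highest of the 10 genes, at 73.7 normalized CPM per kilobase over the 20 mice, above 96.2% of the genes tested. Asns (26.7) and Xbp1 (25.4) followed, and their ranges over the mice overlapped. Ddit3 had 14.1, Atf6 9.15, Eif2ak3 6.64, Sesn2 5.44, Chac1 1.96, Ern1 1.83 and Trib3 0.448 normalized CPM per kilobase. Of the neighbours in this order, Eif2ak3 and Sesn2, and Chac1 and Ern1, had ranges over the mice that overlapped as well, and the other neighbours did not. Asns was the steadiest of the 10, with a highest mouse 1.24 times its lowest, and Xbp1 varied by 2.1 times, the most among the genes with over 50 counts.

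**Figure D1:**
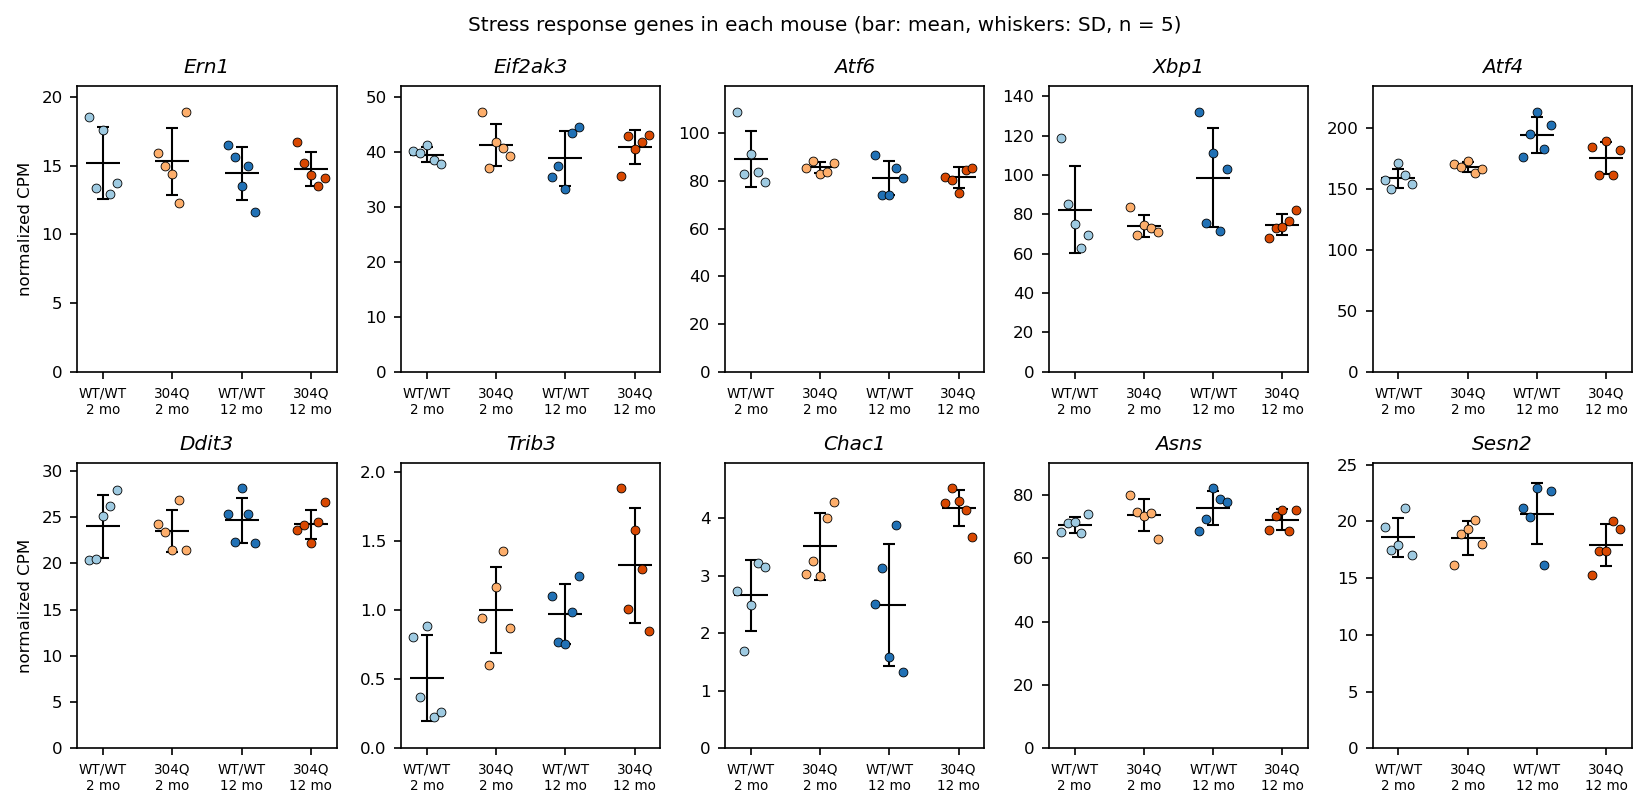
Normalized CPM (vertical axes, from 0) of the 10 genes in each of the 20 mice, by group (304Q stands for 304Q/304Q, mo for months), with the mean and SD of 5 mice. Atf4 is higher in all 5 WT/WT mice at 12 months (176 to 213) than at 2 months (150 to 171), and Xbp1 is over 100 in 4 WT/WT mice and in no 304Q/304Q mouse.

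Differences between groups were tested for the 8 genes that averaged 50 counts or more, among 12153 such genes, by the quasi-likelihood test of edgeR with p adjusted over all of them after Benjamini and Hochberg. Trib3 and Chac1 lie under that limit and come from a second fit over 16765 genes that averaged 5 counts or more. When the genotypes were compared at 2 months, 0 of the 8 genes passed an adjusted p of 0.05, against 0.0494% of all genes tested. At 12 months, 0 of the 8 passed, against 12.5% of all genes. With age, 1 of the 8 passed in WT/WT mice, against 11.5% of all genes, (6.08% were higher at 12 months), and 0 in 304Q/304Q mice, against 7.26%. The interaction of genotype and age was passed by 0 of the 8, against 1.95% of all genes. At an unadjusted p under 0.05 the counts were 0 and 2 for genotype at 2 and 12 months, 1 and 0 for age in WT/WT and 304Q/304Q mice, and 1 for the interaction. By DESeq2's Wald test the counts of adjusted calls were the same in all 5 comparisons.

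The gene that passed was Atf4, which rose with age in WT/WT mice. It was also the 1 gene of the 8 whose groups did not overlap in that comparison, as they did not for 6.57% of all genes. The groups of all 8 genes overlapped in the comparison of genotypes at 2 months (1.05% of all genes did not), of genotypes at 12 months (8.94%) and of ages in 304Q/304Q mice (7.8%). The age comparison in WT/WT mice and the genotype comparison at 12 months share the 5 WT/WT mice of 12 months, and each other pair of comparisons with a group in common shares its mice likewise, so that their values are not independent. Where the genes passed no test, the intervals bound the difference: over the 8 genes the 95% intervals of the log2 difference at 2 months lay between -0.45 and 0.27. At 12 months they lay between -0.71 and 0.29.

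**Figure D2:**
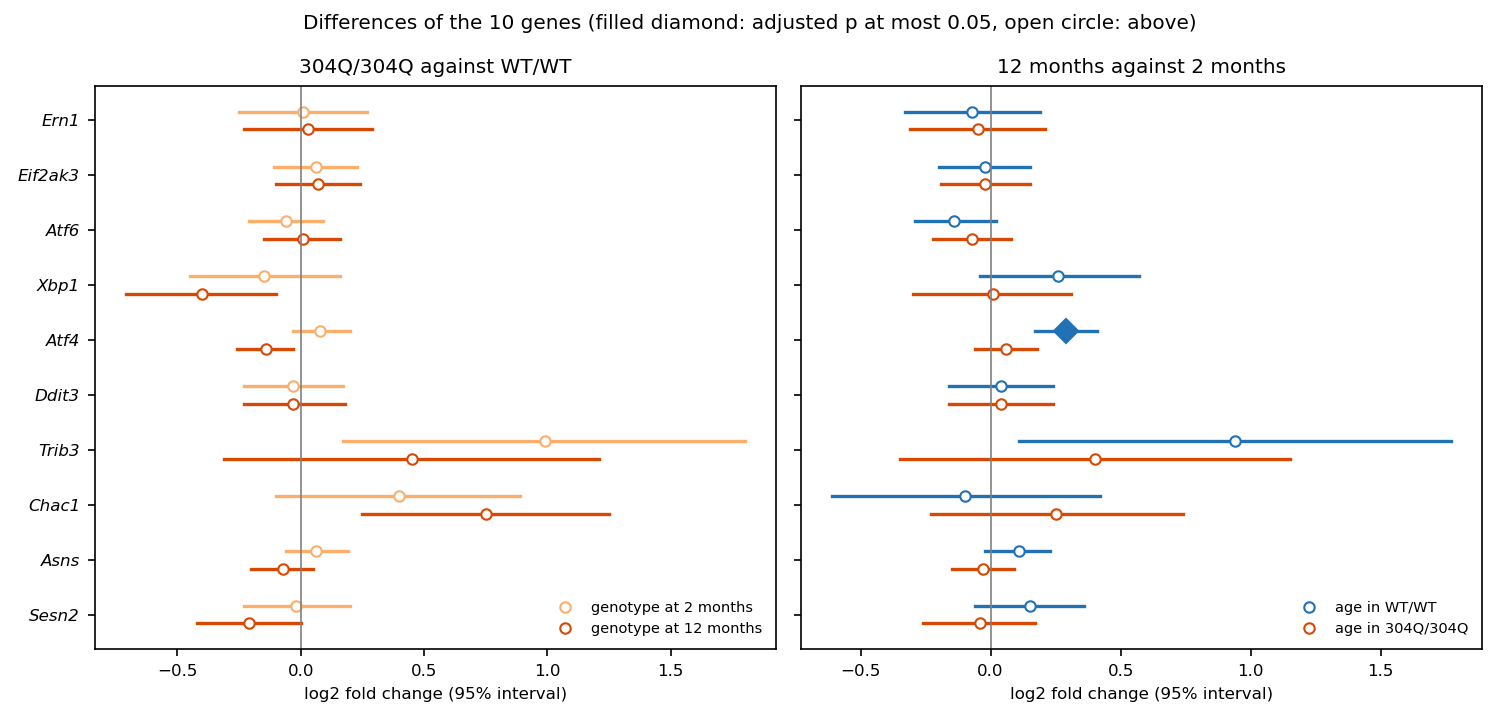
Log2 fold changes with 95% intervals (horizontal axes) of the 10 genes for 304Q/304Q against WT/WT at each age (left) and for 12 against 2 months in each genotype (right). Trib3 and Chac1 come from the fit over genes that averaged 5 counts or more. The filled diamond is Atf4 in WT/WT mice, at a log2 fold change of 0.29, and the widest intervals are those of Trib3.

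The sensors differed little between groups. Ern1 (ENSMUSG00000020715; chromosome 11 of GRCm38, 106394650 to 106487852, minus strand) had 18.5, 13.4, 17.6, 12.9 and 13.7 normalized CPM in WT/WT mice at 2 months and 15.9, 15, 14.4, 12.3 and 18.9 in 304Q/304Q mice. At 12 months it had 16.5, 15.6, 13.5, 15 and 11.6 in WT/WT and 16.7, 15.2, 14.3, 13.5 and 14.1 in 304Q/304Q mice. The 4 groups lay over each other, and the log2 difference between genotypes was 0.01 ± 0.13 (SE) at 2 months and 0.03 ± 0.13 at 12 months (adjusted p = 0.995 and 0.904).

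Eif2ak3 (ENSMUSG00000031668; chromosome 6, 70844515 to 70905245, plus strand), the PERK kinase, ranged from 37.7 to 41.2 normalized CPM in WT/WT and from 37 to 47.2 in 304Q/304Q mice at 2 months. At 12 months it ranged from 33.2 to 44.5 and from 35.6 to 43.1. The genotypes overlapped at both ages, with log2 differences of 0.06 ± 0.08 and 0.07 ± 0.08 (adjusted p = 0.952 and 0.613). Its exons share 485 bases with Gm43292 on the opposite strand, and the strand setting of the counting is not given in the sources used here, so a part of these counts could belong to that gene.

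Atf6 (ENSMUSG00000026663; chromosome 1, 170704674 to 170867771, minus strand) had 109, 82.9, 91.2, 84 and 79.8 normalized CPM in WT/WT mice at 2 months against 85.4, 88.6, 83.1, 83.9 and 87.6 in 304Q/304Q mice, and 90.9, 74.2, 74.2, 85.5 and 81.4 against 81.6, 80.5, 75, 84.8 and 85.7 at 12 months. Its 1 high value, 109, belongs to the WT/WT mouse of 2 months in which Xbp1 was also high. The log2 difference between genotypes was -0.06 ± 0.07 at 2 months and 0.01 ± 0.07 at 12 months, and that between ages was -0.14 ± 0.07 in WT/WT mice (adjusted p = 0.23) and -0.07 ± 0.07 in 304Q/304Q mice (adjusted p = 0.671).

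Among the transcription factors, Atf4 (ENSMUSG00000042406; chromosome 15, 80255184 to 80257541, plus strand), the hub of the integrated stress response, had 157, 150, 171, 161 and 154 normalized CPM in WT/WT mice at 2 months. At 12 months WT/WT mice had 176, 195, 213, 183 and 202, each above every WT/WT mouse of 2 months. The mean went from 159 ± 7.97 to 194 ± 14.7 (SD, n = 5 each), a log2 fold change of 0.29 ± 0.06 (SE) with a 95% interval of 0.17 to 0.41 and an adjusted p of 0.00246. This fold change was under the 0.5 that the study asks of a differentially expressed gene (DEG). The call held in all 30 alternative analyses, with log2 fold changes from 0.18 (with 3 surrogate variables) to 0.32 and adjusted p between 0.000142 and 0.0406. In the same comparison 3 of 5 tested microglia markers, 2 of 3 tested choroid plexus markers and 2 of 5 tested blood markers were higher at 12 months. Lower were 3 of 6 granule cell, 3 of 6 oligodendrocyte and 2 of 6 astrocyte and Bergmann glia markers. Of 6 Purkinje cell markers 1 was higher, and of 6 interneuron markers 1 was higher and 1 lower. Of 3 tested muscle markers 1 was higher, and no endothelial or meningeal marker passed. Of all genes tested, 11.5% passed there and 6.08% were higher. Of 9 tested immediate early genes 1 passed, as higher, and all 9 estimates were positive, with a median of 0.51. The blood markers summed to between 94.2 and 228 normalized CPM (median 107) in WT/WT mice of 2 months. At 12 months their sum lay between 117 and 248 (median 205) in WT/WT mice. The part of these markers in the Atf4 difference was not tested. In whole cerebellum fewer cells of a type and less RNA per cell cannot be told apart.

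In 304Q/304Q mice Atf4 stood at 170, 168, 173, 163 and 166 normalized CPM at 2 months and at 184, 161, 189, 161 and 182 at 12 months. Here the ages overlapped, and the log2 difference was 0.06 ± 0.06 (adjusted p = 0.628). The test of whether the ageing difference itself differed between genotypes gave an interaction of -0.23 ± 0.08 on the log2 scale (edgeR's adjusted p = 0.16, unadjusted p = 0.00946), so a difference between genotypes in ageing was not shown. Between genotypes Atf4 differed by 0.08 ± 0.06 at 2 months (adjusted p = 0.919) and by -0.14 ± 0.06 at 12 months (adjusted p = 0.104). The latter passed without WT/WT replicate 1 of 12 months, at -0.17 with an adjusted p of 0.0382, and was -0.02 at its smallest in the other alternatives. The genes whose log2 CPM followed Atf4 most closely over the 20 libraries, after the group means were removed, were Fxyd1 (Pearson's r = 0.83), Ndufaf5 (0.776) and Yipf3 (0.771), given as a description over libraries that share depth and dissection.

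Xbp1 (ENSMUSG00000020484; chromosome 11, 5520659 to 5525893, plus strand), the substrate of IRE1 and the factor that induces ER chaperones and degradation genes, was the most uneven of the well-expressed genes. WT/WT mice had 119, 85, 75, 62.7 and 69.5 normalized CPM at 2 months and 132, 75.7, 111, 71.7 and 103 at 12 months. The 304Q/304Q mice had 83.5, 69.3, 74.4, 72.9 and 70.8 at 2 months and 67.9, 73.1, 73.4, 76.6 and 82.3 at 12 months. Thus 1 WT/WT mouse of 2 months and 3 of 12 months stood above 100, while all 10 304Q/304Q mice and the remaining 6 WT/WT mice lay between 62.7 and 85.

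The difference between genotypes in Xbp1 did not pass at either age, although the estimate at 12 months was not small. At 12 months WT/WT mice averaged 98.7 ± 25.2 normalized CPM and 304Q/304Q mice 74.6 ± 5.3 (SD, n = 5 each), a log2 difference of -0.40 ± 0.15 (edgeR's adjusted p = 0.0755, unadjusted p = 0.0118). At 2 months the log2 difference was -0.15 ± 0.15 (adjusted p = 0.946). Age made a difference of 0.26 ± 0.15 in WT/WT mice (adjusted p = 0.249) and 0.01 ± 0.15 in 304Q/304Q mice (adjusted p = 0.986). The 12-month comparison of genotypes was close to the threshold: it passed without WT/WT replicate 2 (adjusted p = 0.0365) or 4 (0.0263) of 12 months, without WT/WT replicate 1 of 2 months (0.03) and with no filter on low counts (0.0452), and over all 30 alternatives the adjusted p lay between 0.0263 and 0.213. Age in WT/WT mice passed without WT/WT replicate 1 of 2 months, at 0.43 with an adjusted p of 0.0441, and in edgeR with 3 surrogate variables, at 0.42 with an adjusted p of 0.0119.

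The mice with high Xbp1 were also those with high ER chaperones. Hspa5, which encodes BiP, the chief chaperone of the ER lumen, had 301, 207, 176, 171 and 196 normalized CPM in WT/WT mice at 2 months and 393, 208, 262, 206 and 305 at 12 months. In 304Q/304Q mice it had 224, 188, 196, 171 and 159 at 2 months and 172, 161, 181, 183 and 216 at 12 months. The 4 WT/WT mice with Xbp1 over 100 thus had Hspa5 between 262 and 393, and the other 16 mice had 224 or less. After group means were removed, Pearson's r over the 20 libraries between the 2 genes on the log2 CPM scale was 0.91, and that of Calr, another chaperone, with Xbp1 was 0.898, both given as descriptions of libraries that share depth and dissection. Not all chaperones went along, since r was 0.185 for Hsp90b1, 0.0149 for Creld2 and -0.754 for P4hb. The genes that followed Xbp1 most closely, named after their values were seen, were Bcl2l1 (r = 0.93), Cry1 (0.92) and Rbm14 (0.917). The choroid plexus marker Ttr stood at 1.05, 374, 7.75 and 955 normalized CPM in the 4 mice with high Xbp1, and at 2009 in WT/WT replicate 2 of 12 months, whose Xbp1 was 75.7. The part of choroid plexus in the Xbp1 and Hspa5 values was not tested.

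**Figure D3:**
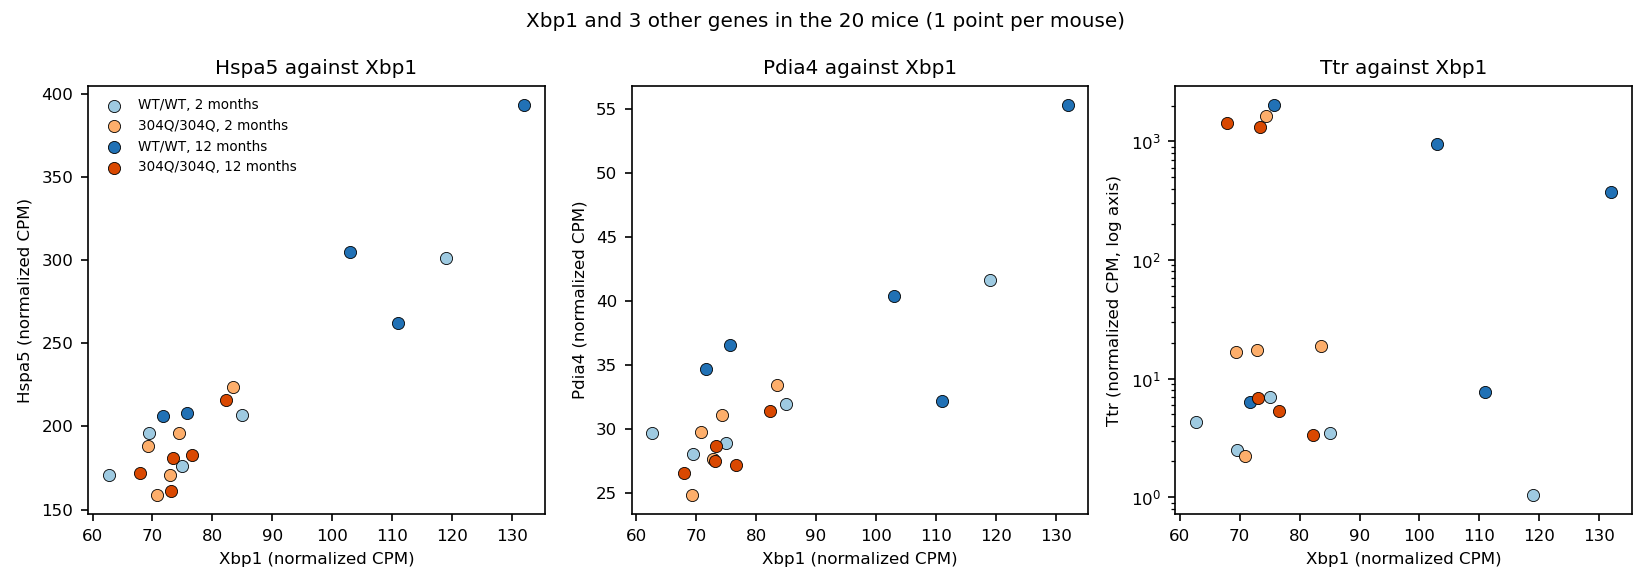
Hspa5, Pdia4 and Ttr (vertical axes, that of Ttr on a log scale) against Xbp1 (horizontal axes), all in normalized CPM, with 1 point for each of the 20 mice. The 4 WT/WT mice with Xbp1 over 100 have Hspa5 between 262 and 393, above the other 16 mice. Their Ttr lies between 1.05 and 955.

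Ddit3 (ENSMUSG00000025408; chromosome 10, 127290774 to 127296288, plus strand) encodes CHOP, the factor tied to cell death under lasting ER stress. It had 20.4, 20.5, 25.1, 26.2 and 27.9 normalized CPM in WT/WT and 24.3, 23.4, 21.4, 26.9 and 21.5 in 304Q/304Q mice at 2 months. At 12 months it had 25.3, 22.3, 28.1, 25.3 and 22.2 against 23.6, 24.2, 22.2, 24.5 and 26.6. The genotypes overlapped almost fully, and the log2 difference was -0.03 ± 0.10 at both ages, with 95% intervals from -0.23 to 0.17 at 2 months and from -0.23 to 0.18 at 12 months. Its exons share 186 bases with other annotated genes, among them Mars and Gm4189 on the opposite strand and a second ID of the name Ddit3, so its counts are less certain than those of Atf4.

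Of the target genes with enough counts for the main test, Asns (ENSMUSG00000029752; chromosome 6, 7675169 to 7693254, minus strand), which makes asparagine and holds an ATF4 element in the stretch shown, was nearly level. It ranged from 67.8 to 74 normalized CPM in WT/WT and from 66.1 to 80.1 in 304Q/304Q mice at 2 months, and from 68.6 to 82 and from 68.7 to 75.2 at 12 months. Age in WT/WT mice, the comparison in which Atf4 rose, gave a log2 difference of 0.11 ± 0.06 for Asns (adjusted p = 0.253). Between genotypes the differences were 0.06 ± 0.06 and -0.07 ± 0.06 at 2 and 12 months (adjusted p = 0.942 and 0.464).

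Sesn2 (ENSMUSG00000028893; chromosome 4, 132492032 to 132510501, minus strand), a leucine-binding inhibitor of mTORC1 signalling, had 19.5, 17.5, 17.9, 21.2 and 17 normalized CPM in WT/WT and 16.2, 18.9, 19.3, 20.1 and 18 in 304Q/304Q mice at 2 months. At 12 months WT/WT mice had 21.2, 20.4, 22.9, 16.2 and 22.7 and 304Q/304Q mice 15.3, 17.4, 17.4, 20 and 19.3. All WT/WT mice but 1 were above all 304Q/304Q mice at the later age. The log2 difference there was -0.21 ± 0.10 (adjusted p = 0.191), and -0.02 ± 0.10 at 2 months (adjusted p = 0.992).

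Chac1 and Trib3 were scarce. Chac1 (ENSMUSG00000027313; chromosome 2, 119351229 to 119354381, plus strand), an enzyme that breaks down glutathione, had 17 to 84 counts in a library. In normalized CPM it was at 2.73, 1.7, 2.5, 3.22 and 3.15 in WT/WT and 3.04, 3.25, 3, 4 and 4.28 in 304Q/304Q mice at 2 months. At 12 months it was at 2.51, 3.14, 1.58, 3.88 and 1.33 in WT/WT and at 4.27, 4.52, 4.31, 4.14 and 3.67 in 304Q/304Q mice. The latter 5 were the more even group, and 1 WT/WT mouse reached into their range.

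The log2 difference of Chac1 between genotypes at 12 months was 0.75 ± 0.24, with a 95% interval of 0.25 to 1.25 and a p of 0.00502 before and 0.0547 after adjustment in edgeR's fit over 16765 genes, the largest estimate in size of the 10 genes in that comparison. DESeq2's Wald test over the same genes gave 0.75 with an adjusted p of 0.0246, and removal of the GC trend of each library, added after the data were seen, gave 0.81 with 0.0342. It also passed without WT/WT replicate 2 (0.84, adjusted p = 0.0477) or 4 (0.96, adjusted p = 0.0151) of 12 months or WT/WT replicate 2 of 2 months (0.75, adjusted p = 0.0487). These were 5 of 28 alternatives, and in the others it did not pass. Over all 28 the log2 difference lay between 0.46 and 0.96 and the adjusted p between 0.0151 and 0.439. The 0.439 came from an alternative that left no single library out. At 2 months the log2 difference was 0.40 ± 0.24 (adjusted p = 0.949), and the interaction of 0.35 ± 0.34 (adjusted p = 0.704) did not separate the ages.

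Trib3 (ENSMUSG00000032715; chromosome 2, 152337422 to 152344032, minus strand), a pseudokinase that feeds back on ATF4 and CHOP, rested on 3 to 26 counts in a library. WT/WT mice of 2 months had 0.804, 0.369, 0.888, 0.224 and 0.263 normalized CPM, and 304Q/304Q mice 0.94, 0.604, 1.17, 1.43 and 0.868. At 12 months WT/WT mice had 1.1, 0.767, 0.752, 0.988 and 1.25 and 304Q/304Q mice 1.88, 1.01, 1.58, 1.3 and 0.848. The lowest 3 values were all of WT/WT mice at 2 months. Against them, 304Q/304Q mice differed by 0.99 ± 0.40 on the log2 scale (unadjusted p = 0.0202, adjusted p = 0.889) and WT/WT mice of 12 months by 0.94 ± 0.40 (unadjusted p = 0.0286, adjusted p = 0.157). In that fit 0 of these 2 genes passed in any comparison, against 0.0298% of all genes for genotype at 2 months and 8.67% at 12 months. For age the share of all genes was 7.83% among WT/WT mice, 5.46% among 304Q/304Q mice and, for the interaction, 1.18%.

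The wider pathways, in lists chosen by known function with earlier results of these data known, were examined in the same fit. At 2 months no gene of the 5 lists passed between genotypes, where 0.0494% of all genes passed. At 12 months 4 of 17 tested ER chaperones were lower in 304Q/304Q mice and 0 higher, where 7.3% of all genes tested were lower and 5.23% higher. The median log2 difference of the list was -0.16, against 0 over all genes. The 4 were Hspa5 (-0.59 ± 0.16, adjusted p = 0.0135), Pdia4, a disulfide isomerase (-0.49 ± 0.13, adjusted p = 0.0101), Sdf2l1, a cofactor of BiP (-1.04 ± 0.33, adjusted p = 0.0417), and Manf, a secreted ER protein (-0.44 ± 0.14, adjusted p = 0.0443).

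How many chaperones passed depended on single mice of both genotypes. Pdia4 had 55.3, 36.6, 32.2, 34.7 and 40.4 normalized CPM in WT/WT mice of 12 months against 26.6, 27.5, 28.7, 27.2 and 31.4 in 304Q/304Q mice, and was the gene of the 4 whose groups did not overlap. Without WT/WT replicate 1, 3 or 5 of 12 months, the 3 mice with high Xbp1, 2 chaperones were lower in place of 4, and without replicate 1 a further 1 was higher. The count fell to 2 without 304Q/304Q replicate 2, 3 or 4 of 12 months too, to 2 and 1 with 3 surrogate variables in edgeR and DESeq2, and to 2 with GC trends removed. The call was kept by Pdia4 in all 30 alternatives and by Hspa5 in all but DESeq2 with surrogate variables (-0.41, adjusted p = 0.147), and lost in 10 of 29 by Sdf2l1 (-0.66 with 3 surrogate variables) and in 16 of 30 by Manf. No chaperone passed for the interaction or for age (0 to 3 were higher with age in WT/WT mice over the alternatives), where the smallest p belonged to Creld2 (0.40), Pdia3 (0.17) and Pdia4 (0.31) in WT/WT mice and to Dnajb11 (-0.19), Hsp90b1 (-0.06) and Creld2 (0.13) in 304Q/304Q mice, given as log2 fold changes with adjusted p from 0.0525 to 0.666.

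**Figure D4:**
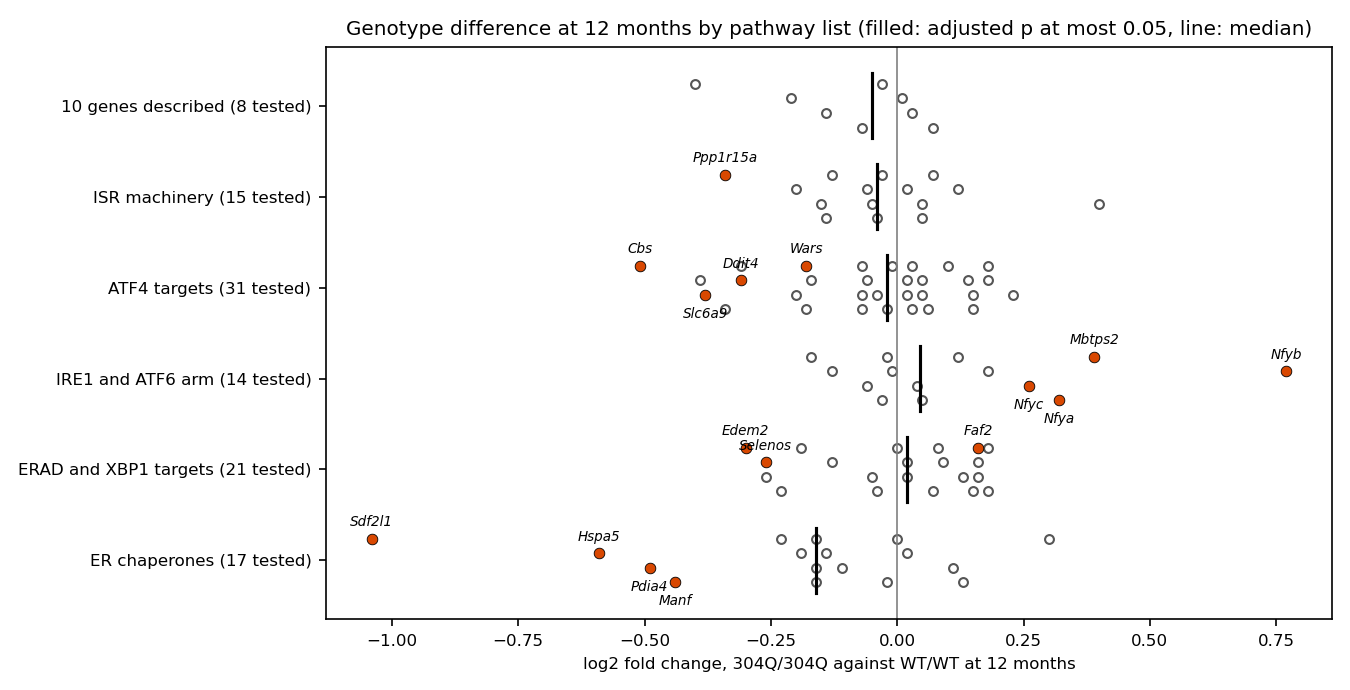
Log2 fold change of 304Q/304Q over WT/WT mice, both of 12 months (horizontal axis), of each tested gene, in rows by list. Filled points are named and passed an adjusted p of 0.05, and black lines are medians. None of the 8 tested genes described here is filled, and the ER chaperones have the lowest median, at -0.16.

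Of the ATF4 targets, 31 of 40 had enough counts, and at 12 months 4 were lower in 304Q/304Q mice and 0 higher (7.3% and 5.23% of all genes), with a median of -0.02. Slc6a9, a glycine transporter, had 71.9, 62.1, 65.9, 60.4 and 65.2 normalized CPM in WT/WT and 44.1, 51.6, 48, 52.6 and 53 in 304Q/304Q mice, with no overlap (-0.38 ± 0.07, adjusted p = 0.000248). Cbs, which starts the transsulfuration of homocysteine, was lower by a log2 difference of -0.51 ± 0.11 (adjusted p = 0.00246), the 1 DEG of the list. Both calls held in all 30 alternatives. Ddit4, an inhibitor of mTORC1 (-0.31, adjusted p = 0.0339), and Wars, the tryptophan tRNA synthetase (-0.18, adjusted p = 0.0362), lost theirs in 11 and 12 of 30, and with 3 surrogate variables Ddit4 was at -0.10 in edgeR. With age, 0 of the 31 passed in WT/WT mice, in which Atf4 rose, against 11.5% of all genes, and 1 passed in 304Q/304Q mice, against 7.26%, which was Slc6a9, lower at -0.45 ± 0.06 (adjusted p = 4.69e-05). The smallest p in WT/WT mice were those of Psat1 (0.20 ± 0.07), Cbs (0.29 ± 0.11) and Vldlr (-0.16 ± 0.06), with adjusted p of 0.0597, 0.0762 and 0.114. Next to Slc6a9 in 304Q/304Q mice stood Psat1 (-0.17 ± 0.07) and Cbs (-0.26 ± 0.11), with adjusted p of 0.144 and 0.159. Psat1, of serine synthesis, was the 1 of the 31 that passed the interaction, at -0.37 ± 0.10 (adjusted p = 0.0452), against 1.95% of all genes.

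In the IRE1 and ATF6 arm the calls at 12 months were in the other direction. Of 14 tested genes 4 were higher in 304Q/304Q mice and 0 lower (5.23% and 7.3% of all genes), with a median of 0.05, and 3 of the 4 are the subunits of NF-Y, the general CCAAT-binding factor that partners ATF6 at the ER stress response element and acts at many other promoters. Nfyb had 19.7, 18.3, 13.2, 14.4 and 14.3 normalized CPM in WT/WT and 24.3, 31.5, 28.8, 30.2 and 22 in 304Q/304Q mice, without overlap (0.77 ± 0.12, adjusted p = 0.00011). Nfya (0.32 ± 0.10, adjusted p = 0.0417) and Nfyc (0.26 ± 0.08, adjusted p = 0.0217) were smaller differences, lost in 10 and 5 of 30 alternatives. With 3 surrogate variables in edgeR the log2 differences of Nfyb, Nfya and Nfyc were 0.51, 0.49 and 0.15. Mbtps2, the protease of the second cut of ATF6, was higher by 0.39 ± 0.09 (adjusted p = 0.00588), and by 0.24 with GC trends removed. Nfyb and Mbtps2 also passed the interaction (0.70 ± 0.17 and 0.49 ± 0.13, adjusted p = 0.0316 and 0.0489), 2 of the 14 against 1.95% of all genes. With age, Mbtps2 was lower in WT/WT mice (-0.31 ± 0.09, adjusted p = 0.0328, lost in 11 of 30 and at -0.13 with GC trends removed) and Nfya was higher in 304Q/304Q mice (0.46 ± 0.10, adjusted p = 0.00543). The next smallest p were those of Nfyb (-0.36, adjusted p = 0.0595) and Nfyc (-0.17, adjusted p = 0.147) in WT/WT mice and of Atf6b (-0.18, adjusted p = 0.091) and Nfyb (0.34, adjusted p = 0.0932) in 304Q/304Q mice.

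Genes of ER-associated degradation and other XBP1 targets were called at 12 months at shares near those of all genes (7.3% lower, 5.23% higher). Of 21 tested, 2 were lower in 304Q/304Q mice, Edem2, which marks misfolded glycoproteins (-0.30 ± 0.09, adjusted p = 0.0209), and Selenos (-0.26 ± 0.08, adjusted p = 0.0255), and 1 was higher, Faf2 (0.16 ± 0.05, adjusted p = 0.0429), with a median of 0.02. The calls were lost in 6, 7 and 16 of 30 alternatives, and Selenos was at -0.17 with 3 surrogate variables in edgeR. With age in WT/WT mice 1 was higher, against 6.08% of all genes: Herpud1, a stress-induced part of the degradation complex (0.29 ± 0.08, adjusted p = 0.0214), ahead of Edem3 (-0.32, adjusted p = 0.0879) and Ube2j1 (-0.21, adjusted p = 0.102). Herpud1 had 94.7, 82, 81.9, 77.2 and 83.7 normalized CPM at 2 months and 104, 101, 113, 85.7 and 110 at 12 months, and its call was lost in 7 of 30 alternatives, at 0.19 with 3 surrogate variables. In 304Q/304Q mice 0 passed with age, the smallest p being those of Selenos (-0.23, adjusted p = 0.0625), Edem2 (-0.25, adjusted p = 0.0838) and Nploc4 (0.17, adjusted p = 0.117).

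All 15 genes of the machinery around eIF2 were tested, and 1 was called lower at 12 months, a share near the 7.3% of all genes. Ppp1r15a, which encodes GADD34, the stress-induced subunit that removes the phosphate from eIF2, was lower in 304Q/304Q mice at 12 months (-0.34 ± 0.09, adjusted p = 0.0187) and the others did not pass. It had 35.3, 48.1, 45.6, 45.6 and 43.8 normalized CPM in WT/WT and 41.1, 27.4, 37.5, 32.2 and 35 in 304Q/304Q mice. The 2 lowest of these, replicates 2 and 4 of the 304Q/304Q mice, were also the mice with Fos at 6.62 and 7.52, and without either the call was lost (adjusted p = 0.0637 and 0.0558), as in 4 other alternatives. With 3 surrogate variables, which the study used, the log2 difference itself was -0.13 in edgeR and -0.12 in DESeq2 (adjusted p = 0.428 and 0.467). The part of handling or dissection in this was not tested. With age in WT/WT mice 2 genes were higher, against 6.08% of all genes: Ppp1r15a (0.30 ± 0.09, adjusted p = 0.0409, lost in 15 of 30 alternatives and at 0.08 with 3 surrogate variables) and Eif2ak2, the kinase PKR (0.52 ± 0.16, adjusted p = 0.0335, lost in 7 of 30), and Eif2b2 came next (0.22, adjusted p = 0.0635). In 304Q/304Q mice Eif2ak2 was higher too, with 7.26 to 9.52 normalized CPM at 2 months and 10.2 to 15.8 at 12 months (0.63 ± 0.15, adjusted p = 0.00945, kept in all 30), Gcn1l1 was lower (-0.21 ± 0.06, adjusted p = 0.0206, lost in 5 of 30), and Eif2b1 came next (-0.28, adjusted p = 0.182).

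Markers of cell types moved with genotype at 12 months beside these lists. Of all genes tested, 7.3% were lower in 304Q/304Q mice and 5.23% higher. Of 6 Purkinje cell markers 5 were lower in 304Q/304Q mice, and their sum lay between 5434 and 6163 normalized CPM in WT/WT and between 4461 and 4921 in 304Q/304Q mice. Of 6 oligodendrocyte markers 4 were lower, with sums of 4878 to 5569 and 3128 to 4389. Of 5 tested blood markers 4 were lower, with sums of 117 to 248 and 99.7 to 114. Of 6 interneuron markers 2 were lower, with sums of 1655 to 1884 and 1332 to 1470, and of 6 astrocyte and Bergmann glia markers 3 were lower, with sums of 2984 to 3017 and 2706 to 2851, so that these sums did not overlap either. Of 3 tested muscle markers 2 were higher, Myh4 (log2 difference of 10.71) and Acta1 (3.22). The 1 lower was Pvalb (-0.45), which is also among the interneuron markers. The sums over the muscle list, Pvalb included, were 830 to 1062 in WT/WT mice. In 304Q/304Q mice they were 678, 673, 729, 657 and 854, the highest in replicate 5. How many mice the differences of Myh4 and Acta1 rest on was not examined, nor was muscle tissue carried along in the dissection. Among the remaining cell types 1 of 5 tested microglia markers was higher, 1 of 6 endothelial markers was lower, and no granule cell, choroid plexus or meningeal marker passed. Of 9 tested immediate early genes 1 was called lower, Dusp1 (-1.15), and 1 higher, Arc (0.34). The estimates of the 9 were negative for 7 and positive for 2, with a median of -0.64. With age in 304Q/304Q mice 5 of 6 Purkinje cell and 5 of 6 oligodendrocyte markers were lower, where 7.26% of all genes passed in either direction. The part of these markers in the differences above was not tested. The 8 tested genes described here had a median log2 difference of -0.05 in the same comparison, against 0 over all genes.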

How the data were processed

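Per the labels and the study's methods, cerebella were kept in RNAlater and polyA RNA was made into stranded libraries. STAR (2.4.5b in the submitters' processing notes) aligned reads to GRCm38 for the authors, who counted them per gene with Rsubread, with a strand setting not given in the sources used here. The deposited values are whole-number counts, not normalized, for 29200 Ensembl genes; the study's tests used DESeq2 with surrogate variables. GENCODE M21 gave symbols for 29150 IDs, positions and exon lengths.

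Here library sizes were scaled by TMM, and genes averaging 50 counts or more were fitted with edgeR 4.0.16 (R 4.3.3), 1 term per group over all 20 libraries, quasi-likelihood tests and Benjamini-Hochberg adjustment. Called genes had an adjusted p of at most 0.05. These 12153 genes held 99.3% of the counts. A second fit took genes averaging 5 counts or more. Log2 CPM used a prior count of 2. The common biological coefficient of variation was 0.113, larger than counting error for genes with many counts, but not for Trib3 and Chac1. In the second fit the coefficients of these genes themselves were larger, at 28.3% for Trib3 and 21.8% for Chac1. Replicates differed by more than sampling noise (chi-square over degrees of freedom at least 4.43). The labels number mice without naming litters, so p-values measure the spread between these mice. The fit was tested on simulated data with known changes.

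The 10 genes and all lists were chosen with earlier results of these data known. All 10 genes were described. In each list, genes that passed for genotype or the interaction were named (up to 6), and the 3 smallest p for each age comparison. Alternatives were DESeq2 1.42.0, 3 surrogate variables from sva 3.50.0, DESeq2 size factors, 3 other filters, only the groups compared, the replicate block, a log2 fold change of at least 0.5 and each library left out. Removal of GC trends was added after the data were seen.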

Additional observations from a re-analysis of the deposited data

Results flagged for a closer look

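Among the 40 sets of 5 mice (10 genes in 4 groups), 0 held a mouse far enough from the others to pass Dixon's critical value of 0.71.

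The interaction of genotype and age passed in edgeR's fit for 3 genes of the wider lists and for none of the 8 tested genes described above. The 3 were 2 of 14 tested genes of the IRE1 and ATF6 arm and 1 of 31 tested ATF4 targets, against 1.95% of all genes. Nfyb had an interaction of 0.70 on the log2 scale (adjusted p = 0.0316), with means of 20.5 (WT/WT) and 21.6 (304Q/304Q) normalized CPM at 2 months and 16 and 27.3 at 12 months, in the same order. Psat1 had -0.37 (adjusted p = 0.0452), with means of 74.5 and 83.8 at 2 months and 85.5 and 74.4 at 12 months. Mbtps2 had 0.49 (adjusted p = 0.0489), with means of 30.1 and 28 at 2 months and 24.3 and 31.8 at 12 months. These calls were lost in 14, 16 and 21 of 29 alternatives.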

How the results depend on the processing

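The number of the 8 genes past the threshold stayed at 0 for genotype at 2 months, for age in 304Q/304Q mice and for the interaction under all alternatives. For genotype at 12 months it was 1 in place of 0 without a filter on low counts (Xbp1), and 0 to 1 with single libraries left out: Xbp1 without WT/WT replicate 1 of 2 months or WT/WT replicate 2 or 4 of 12 months, Atf4 without WT/WT replicate 1 of 12 months. For age in WT/WT mice it was 2 in edgeR with 3 surrogate variables (Atf4 and Xbp1), 0 where a log2 fold change of 0.5 was asked for as well, and 1 to 2 with single libraries left out, the second call being Xbp1 without WT/WT replicate 1 of 2 months. For Trib3 and Chac1 over the 5 comparisons it was 1 in place of 0 by DESeq2 and with GC trends removed, and 0 to 1 with single libraries left out, each time Chac1 at 12 months. The cause of these changes was not tested. No called value reversed its direction. Among the log2 fold changes followed singly (the 10 genes in every comparison, and genes of the wider lists where they were called), 196 lost a call, all of the wider lists, and 12 gained one, all of Xbp1, Atf4 and Chac1. Calls gained by other genes of the wider lists were followed only as counts per list, which for the eIF2 machinery at 12 months reached 1 higher in place of 0.

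The replicate numbers showed little sign of pairing between genotypes or between ages in 304Q/304Q mice. Between ages in WT/WT mice there was more, with correlations of 0.551 for replicate 1 and 0.271 for replicate 4. Correlations of same-numbered deviations lay between -0.323 and 0.0491 for genotypes at 2 months, -0.182 and 0.0774 at 12 months, -0.158 and 0.551 for ages in WT/WT and -0.121 and 0.173 in 304Q/304Q mice, and 1, 0, 4 and 0 of 10 mice in each comparison correlated best with their own number. With the replicate block 0, 0, 1, 0 and 0 of the 8 genes passed for genotype at 2 and 12 months, age in WT/WT and 304Q/304Q mice and the interaction, as without it, and 0 of Trib3 and Chac1. In the wider lists the block took the calls of Nfyb, Psat1 and Mbtps2 for the interaction (adjusted p = 0.0551, 0.0752 and 0.0744), Faf2 (0.0669) and Wars (0.0505) for genotype at 12 months and Ppp1r15a (0.0617) for age in WT/WT mice.

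Trib3, at 3 to 26 counts in a library, is limited by depth, and its 95% intervals span over 1 log2 unit.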

Other observations

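Of the 45 pairs among the 10 genes, Atf6 and Xbp1 had the highest Pearson's r of log2 CPM over the 20 libraries after group means were removed (0.566) and Xbp1 and Chac1 the lowest (-0.516), as descriptions of libraries that share depth and dissection.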
